A study of Saccharomyces cerevisiae with 11 samples.

Results

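The 9 genes described here encode budding yeast securin (PDS1), separase (ESP1), shugoshin (SGO1) and the spindle checkpoint proteins Mps1, Bub1, Mad1, Mad2, Mad3 and Bub3. They were chosen by standard name and found by locus tag, and they are 9 of the 7035 features used from the deposited table. All 9 passed the filter of at least 1 TPM in at least 2 libraries. Separase cuts the cohesin ring that holds sister chromatids together, and securin binds separase and keeps it inactive until anaphase. The spindle checkpoint senses kinetochores that are not properly attached to microtubules and holds back the anaphase-promoting complex (APC/C), the ubiquitin ligase that sends securin for degradation. Shugoshin works at the centromere, where it senses lack of tension between sister kinetochores.

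The libraries came from Saccharomyces cerevisiae W303 of mating type a, and 11 cultures were sequenced. All groups carried the alleles ade2-1, his3-11,15, trp1-1 and leu2-3,112 together with can1-100. All also carried OsTIR1 under the ADH1 promoter at the ura3-1 locus (pMK200, URA3), and a chromosomal SCC2 tagged as SCC2-AID*-6FLAG-HYG, so that the tagged cohesin loader subunit is degraded once IAA, an auxin, is added. A pRS413 plasmid with the HIS marker brought scc2-R787G-7MYC in 3 cultures, scc2-G1242V-7MYC in 3, no SCC2 in 2 (the empty vector) and SCC2-7MYC in 3 (WT). Every group, WT included, was harvested after 9 h in 1 mM IAA, and how far the tagged protein was depleted was not measured here. Replicates are cultures, and whether they descend from independent transformants is not stated. All p-values therefore reflect only how cultures varied, which may be technical.

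Values are TPM, relative transcript abundances corrected for transcript length that keep no sequencing depth, so depth is unknown. They were scaled per library to a common median of ratios (scaled TPM). SCC2 transcript stood at 22.5 and 23.9 scaled TPM with the empty vector and between 78.1 and 132 in the other libraries. The share of TPM taken by rRNA was 9.20% in WT replicate 2 and between 0.182% and 0.525% elsewhere. The 5 a-cell markers lay between 17.7 and 401 scaled TPM, and of the 4 alpha-cell markers only SAG1 overlapped with them. MF(ALPHA)2 lay between 0 and 1.15, STE3 between 2.79 and 7.00, MF(ALPHA)1 between 2.91 and 11.9 and SAG1 between 21.1 and 40.0, above the lowest value of the a-cell marker BAR1 (17.7). The 9 genes lie on chromosomes IV, VII, X and XV, whose median log2 difference from WT lay between -0.028 and 0.048 in every library after subtraction of the genome-wide median. On chromosome I, which carries none of the 9, it ran from -0.65 to 0.48.

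Across the 4 groups, the RNA of securin, separase and shugoshin was higher in R787G, G1242V and the empty vector than in WT. BUB1 and MAD1 were highest with the empty vector and lower in G1242V than in R787G. MAD2 was the single gene of the 9 to fall, in R787G and in G1242V. In cell populations such as these, a larger share of cells in the phase that expresses a gene and more RNA per cell cannot be told apart.

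**Figure D1:**
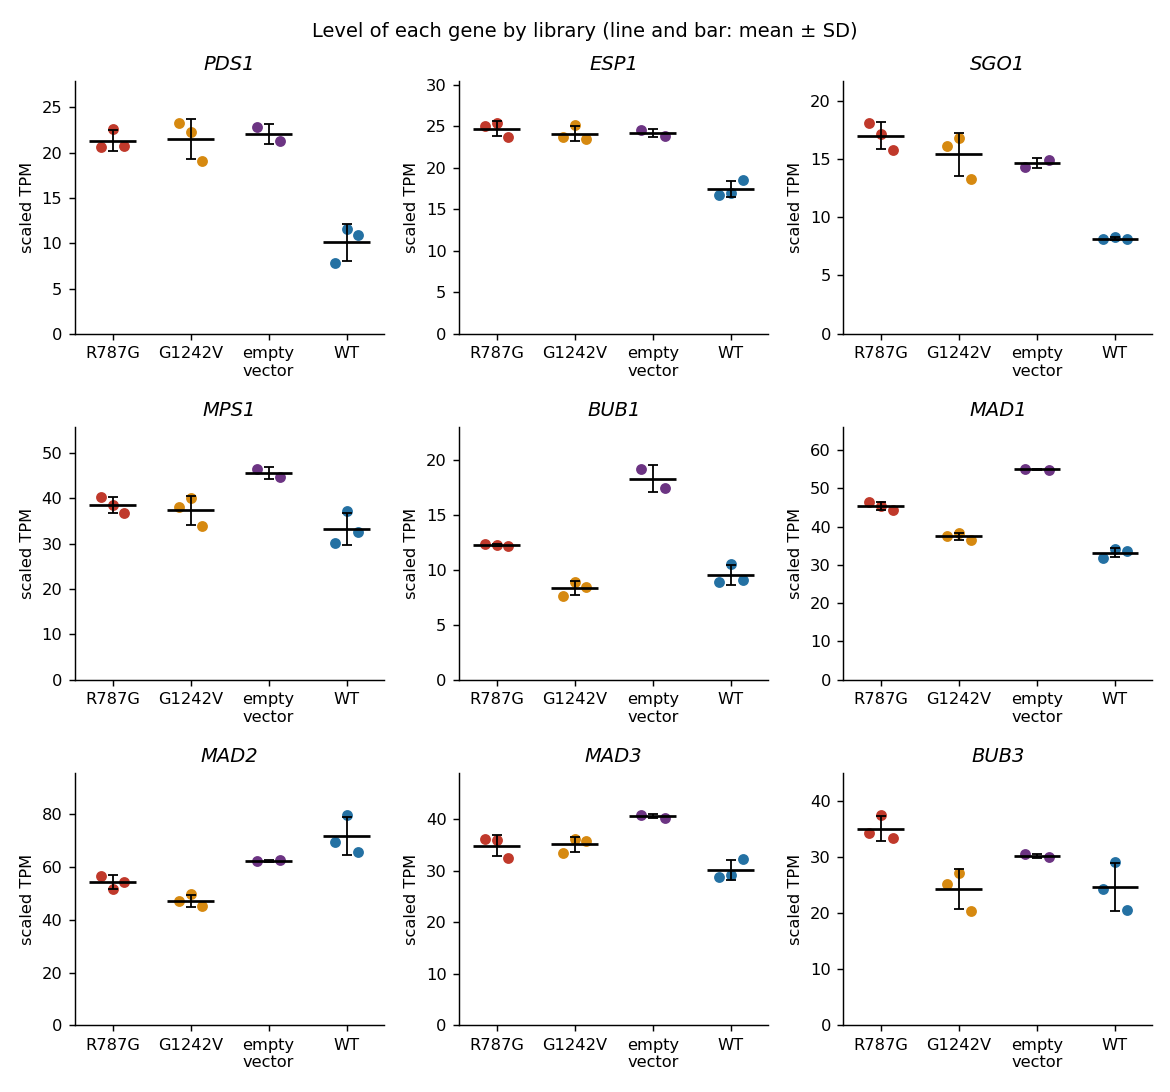
Scaled TPM of each gene in every library (points), with the group mean and SD (black), for R787G, G1242V, the empty vector and WT. PDS1 lay between 19.1 and 23.3 in the 8 libraries without a WT plasmid copy and between 7.81 and 11.5 in WT, while MAD2 was highest in WT.

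A gene was called where its adjusted p was under 0.05 in limma, fitted to log2(scaled TPM + 1) of all 6432 features with Benjamini-Hochberg adjustment over all of them. Fold changes on this scale are given as log2 fold change ± SE and understate the change of genes at low levels. Many features were called in this series, and the share called stands beside the counts. In R787G against WT, 7 of the 9 genes were higher and 1 was lower, where 36.5% of all features were higher and 29.3% were lower (65.8% called in all). The 2 groups did not overlap in 8 of the 9 genes and in 71% of all features. In G1242V against WT, 5 were higher and 1 was lower, where 26.6% of features were higher and 27.3% were lower (54% called in all). The 2 groups did not overlap in 6 of the 9 genes and in 54.6% of all features. In the empty vector against WT, 7 were higher and none lower, where 36.8% of features were higher and 25.2% were lower (62% called in all). The 2 groups did not overlap in 9 of the 9 genes and in 74.6% of all features. The median log2 fold change of the 9 was 0.44 in R787G, 0.17 in G1242V and 0.45 in the empty vector, beside 0.067, 0.002 and 0.089 over all features tested. The 3 comparisons share the WT libraries and are therefore not independent of each other. In the F test over the 4 groups all 9 were called (limma adjusted p 9.86e-06 to 0.00994), as were 86.3% of all features.

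**Figure D2:**
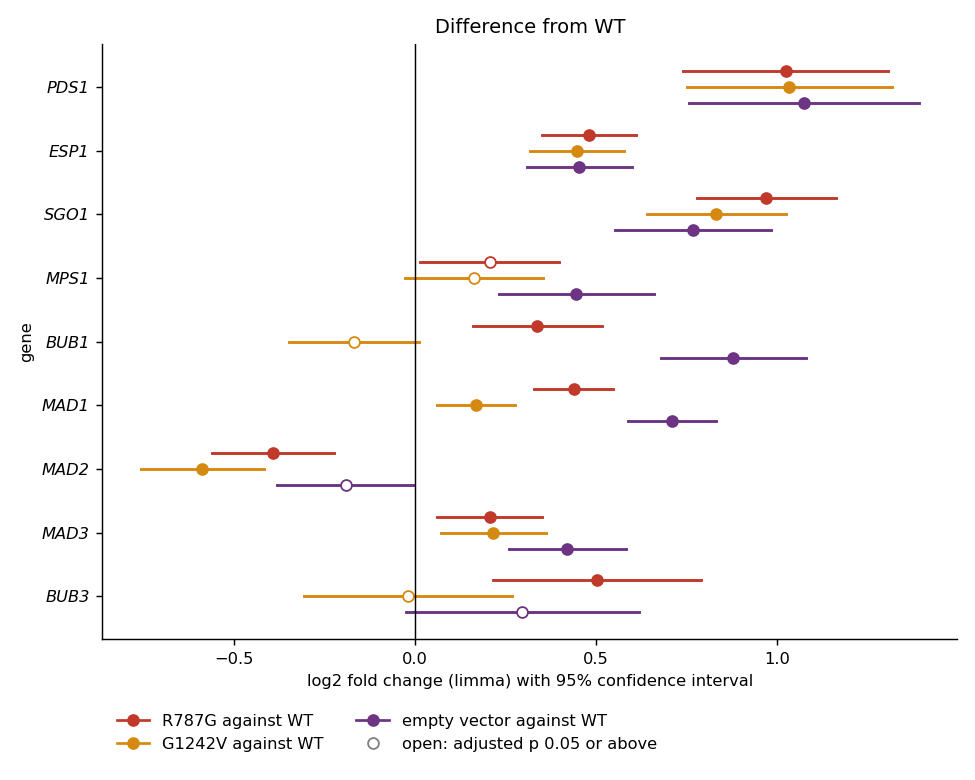
Log2 fold change against WT with its 95% confidence interval for each gene in R787G, G1242V and the empty vector (limma). Filled points passed an adjusted p of 0.05: PDS1, ESP1 and SGO1 passed in all 3 comparisons, and MAD2 passed below 0 in R787G and G1242V.

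PDS1 (YDR113C, chromosome IV, 680496 to 681617 on sacCer3, reverse strand) encodes securin, the inhibitor and chaperone of separase, in 1 exon. It stood at 20.6, 22.6 and 20.7 scaled TPM in R787G, at 23.3, 22.2 and 19.1 in G1242V, at 22.9 and 21.3 in the empty vector and at 7.81, 11.5 and 10.9 in WT. All 8 libraries without a WT plasmid copy lay above the 3 WT libraries. PDS1 rose by 1.03 ± 0.13 in R787G (2.04-fold, limma adjusted p = 7.24e-05), by 1.04 ± 0.13 in G1242V (limma adjusted p = 1.02e-04) and by 1.07 ± 0.14 in the empty vector (limma adjusted p = 1.32e-04). Among the 9 genes it showed the largest rise against WT in each comparison, though without WT replicate 1 SGO1 rose more in R787G (0.96, against 0.87 for PDS1).

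ESP1 (YGR098C, chromosome VII, 682566 to 687458, reverse strand) encodes separase, the protease that cuts the cohesin subunit Mcd1. It stood at 25.03, 25.4 and 23.7 scaled TPM in R787G, at 23.7, 25.1 and 23.4 in G1242V, at 24.5 and 23.9 in the empty vector and at 16.7, 17.0 and 18.5 in WT. The WT libraries were again the lowest and did not overlap with any other group. ESP1 rose by 0.48 ± 0.058 in R787G, 0.45 ± 0.058 in G1242V and 0.45 ± 0.065 in the empty vector (limma adjusted p 6.37e-05, 1.49e-04 and 2.26e-04).

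SGO1 (YOR073W, chromosome XV, 464771 to 466543, forward strand) encodes shugoshin, which recruits the phosphatase PP2A and the chromosomal passenger complex to the centromere. It stood at 18.1, 17.1 and 15.8 scaled TPM in R787G, at 16.1, 16.8 and 13.3 in G1242V, at 14.3 and 14.9 in the empty vector and at 8.09, 8.31 and 8.10 in WT. The WT libraries were the lowest and lay close together. SGO1 rose by 0.97 ± 0.086 in R787G, 0.83 ± 0.086 in G1242V and 0.77 ± 0.096 in the empty vector (limma adjusted p 8.68e-06, 3.44e-05 and 9.50e-05). Under quantile normalization the rise in the empty vector was 0.38, with the call kept. None of the 3 genes passed the threshold in comparisons among R787G, G1242V and the empty vector. With other scalings ESP1 in G1242V against the empty vector passed in both directions (-0.34 after rescaling to nuclear coding genes, 0.16 under quantile normalization), and SGO1 passed under quantile normalization in R787G (0.44) and G1242V (0.41) against the empty vector. In R787G against the empty vector SGO1 (0.20) also passed in a fit of the 2 groups alone, with a replicate block and without G1242V replicate 3 (limma adjusted p 0.0416, 0.0460 and 0.0407), and was -0.019 after rescaling. For PDS1 the 95% interval of R787G minus G1242V ran from -0.29 to 0.27, for ESP1 from -0.096 to 0.16 and for SGO1 from -0.054 to 0.33. In R787G against the empty vector, the intervals were -0.37 to 0.27 for PDS1, -0.12 to 0.17 for ESP1 and -0.013 to 0.42 for SGO1.

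The sequences around the coding starts of SGO1, which rose against WT in R787G and G1242V, and of MAD2, which fell there, are shown next. Each runs 5′ to 3′ on the coding strand from 250 bases before to 50 bases after the start of the annotated coding sequence (R64 assembly of RefSeq, the same assembly as sacCer3). Capitals mark GTAAACA (a motif of forkhead factors), and CGCGAAA (an SCB motif of SBF, a factor of G1/S genes) was searched too, both on both strands.
SGO1 (chrXV:464521-464820, forward strand): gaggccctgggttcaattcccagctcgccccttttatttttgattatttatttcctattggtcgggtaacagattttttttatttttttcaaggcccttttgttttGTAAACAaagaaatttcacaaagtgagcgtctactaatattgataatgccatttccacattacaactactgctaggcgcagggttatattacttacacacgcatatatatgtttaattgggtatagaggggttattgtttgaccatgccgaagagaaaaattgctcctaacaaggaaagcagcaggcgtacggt
MAD2 (chrX:387407-387706, forward strand): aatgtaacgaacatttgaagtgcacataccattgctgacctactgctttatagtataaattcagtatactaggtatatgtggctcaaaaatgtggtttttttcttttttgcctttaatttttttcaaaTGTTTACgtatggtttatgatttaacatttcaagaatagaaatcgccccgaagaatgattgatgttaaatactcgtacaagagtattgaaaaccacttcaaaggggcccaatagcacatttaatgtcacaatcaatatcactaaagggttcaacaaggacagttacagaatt
The match at SGO1 began 144 bases before the coding start, and that at MAD2, on the other strand, 122 bases before it. Of 6007 nuclear coding genes, 6.54% held GTAAACA and 3.60% CGCGAAA in the same 300 bases. GTAAACA was found in 4 of the 9 genes, SGO1, MPS1, MAD2 and MAD3, among which MAD2 was the one that fell against WT. CGCGAAA was found at BUB3, and ESP1, BUB1 and MAD1 held no match in this window. A match of these letters is a description of the sequence and shows no binding.

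MPS1 and BUB1 encode the checkpoint kinases. Mps1 phosphorylates the kinetochore protein Spc105 and so lets Bub1 and Bub3 bind there. MPS1 (YDL028C, chromosome IV, 400997 to 403291, reverse strand) stood at 40.2, 38.5 and 36.6 scaled TPM in R787G, at 38.2, 40.0 and 33.8 in G1242V, at 46.5 and 44.7 in the empty vector and at 30.2, 37.1 and 32.6 in WT. The empty vector libraries were the highest, and R787G and G1242V overlapped with WT. MPS1 rose in the empty vector by 0.45 ± 0.096 (limma adjusted p = 0.00257). It did not pass in R787G (0.21 ± 0.086, limma adjusted p = 0.0554, range over the alternatives 0.0122 to 0.188) or in G1242V (0.16 ± 0.086, limma adjusted p = 0.136).

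BUB1 (YGR188C, chromosome VII, 872044 to 875109, reverse strand), whose product phosphorylates histone H2A at the centromere and so helps to place shugoshin, stood at 12.4, 12.2 and 12.2 scaled TPM in R787G, at 7.65, 8.94 and 8.46 in G1242V, at 19.2 and 17.5 in the empty vector and at 8.92, 10.5 and 9.09 in WT. The empty vector lay above R787G, and R787G above both G1242V and WT, with no overlap, while G1242V and WT overlapped. BUB1 rose by 0.34 ± 0.080 in R787G (limma adjusted p = 0.00392) and by 0.88 ± 0.089 in the empty vector (limma adjusted p = 2.65e-05). In G1242V the difference from WT was -0.17 ± 0.080 (limma adjusted p = 0.100), with a 95% interval of -0.35 to 0.0097. Under quantile normalization the rise in R787G was 0.19, still called.

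MAD1 (YGL086W, chromosome VII, 347119 to 349368, forward strand) encodes the protein that sits at unattached kinetochores and there converts Mad2 to its active form. It stood at 46.3, 45.5 and 44.2 scaled TPM in R787G, at 37.5, 38.2 and 36.6 in G1242V, at 55.1 and 54.8 in the empty vector and at 31.8, 34.1 and 33.6 in WT. No group overlapped with another, and the order from the empty vector through R787G and G1242V to WT held in every library. MAD1 rose by 0.44 ± 0.049 in R787G, 0.17 ± 0.049 in G1242V and 0.71 ± 0.054 in the empty vector (limma adjusted p 3.64e-05, 0.0142 and 5.39e-06). The call in G1242V ended in the TPM as deposited, after rescaling to nuclear coding genes (0.10), in a fit of the 2 groups alone and without G1242V replicate 2 (limma adjusted p 0.0519 to 0.245 in these, 0.00241 to 0.245 over all alternatives).

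MAD2 (YJL030W, chromosome X, 387657 to 388247, forward strand) encodes the protein that binds the APC/C activator Cdc20 in the checkpoint complex. It stood at 56.6, 51.6 and 54.3 scaled TPM in R787G, at 46.9, 49.6 and 45.0 in G1242V, at 62.1 and 62.6 in the empty vector and at 69.5, 79.7 and 65.5 in WT. Here the WT libraries were the highest, and no other library reached them. MAD2 fell by 0.39 ± 0.076 in R787G (limma adjusted p = 0.00119) and by 0.59 ± 0.076 in G1242V (limma adjusted p = 1.38e-04). In the empty vector the difference was -0.19 ± 0.085 and did not pass (limma adjusted p = 0.0726). That last value was 0.036 with deposited TPM left unscaled and 0.073 after rescaling to nuclear coding genes, so its sign depends on the scaling. The highest MAD2 value was that of WT replicate 2, the library with more rRNA, and both falls stayed called without it.

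MAD3 (YJL013C, chromosome X, 409493 to 411040, reverse strand), a partner of Mad2 in the complex that inhibits Cdc20, stood at 36.2, 35.9 and 32.5 scaled TPM in R787G and at 33.4, 36.1 and 35.7 in G1242V. It stood at 40.8 and 40.3 in the empty vector and at 28.8, 29.1 and 32.3 in WT. All 3 groups lay above WT, R787G and G1242V by a narrow margin. MAD3 rose by 0.42 ± 0.072 in the empty vector (limma adjusted p = 6.88e-04), 0.21 ± 0.065 in R787G (limma adjusted p = 0.0173) and 0.22 ± 0.065 in G1242V (limma adjusted p = 0.0172). The call in R787G ended in a fit of the 2 groups alone and without R787G replicate 1 or 2 or WT replicate 1 (0.00499 to 0.0670 over all alternatives). The call in G1242V ended in the TPM as deposited, after rescaling, in a fit of the 2 groups alone and without G1242V replicate 2 or WT replicate 1 or 2 (0.00517 to 0.147).

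BUB3 (YOR026W, chromosome XV, 379781 to 380806, forward strand) encodes the partner that brings Bub1 and Mad3 to phosphorylated Spc105. It stood at 34.3, 37.5 and 33.3 scaled TPM in R787G, at 25.3, 27.2 and 20.3 in G1242V, at 30.5 and 29.9 in the empty vector and at 24.2, 29.1 and 20.6 in WT. In scaled TPM R787G lay above all other libraries, and G1242V and WT covered nearly the same range. In the TPM as deposited, R787G replicate 3 (33.3) lay below empty vector replicate 1 (34.5). BUB3 rose in R787G by 0.50 ± 0.13 (limma adjusted p = 0.00615). It did not pass in the empty vector (0.30 ± 0.14, limma adjusted p = 0.0983, range over the alternatives 0.0100 to 0.283) or in G1242V (-0.019 ± 0.13, limma adjusted p = 0.914), where the 95% interval ran from -0.31 to 0.27.

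The level of all features moved with the scaling in the empty vector against WT. The median log2 fold change over all features was 0.089 here, 0.31 with deposited TPM left unscaled and 0.35 after rescaling to nuclear coding genes, and the share of higher among called features was 59.3%, 78.3% and 80.7%. Under rescaling, the rises of ESP1, MPS1 and MAD3 in the empty vector were 0.72, 0.71 and 0.69, beside that shift of the median.

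By level, in scaled TPM, MAD2 was the highest of the 9 genes in each group, with 54.2 ± 2.52 in R787G, 47.2 ± 2.29 in G1242V, 62.3 ± 0.351 in the empty vector (SD, n = 2) and 71.6 ± 7.28 in WT (SD, n = 3 in the others). In WT, MPS1, MAD1, MAD3 and BUB3 followed with ranges that overlapped from each to the next, then ESP1 alone, and at the bottom PDS1 overlapped with both BUB1 and SGO1, which did not overlap with each other. BUB1 was the lowest of the 9 in R787G (12.3 ± 0.117) and in G1242V (8.35 ± 0.653), with no overlap with SGO1, the next above it. SGO1 was the lowest with the empty vector (14.6 ± 0.445) and in WT (8.17 ± 0.122).

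Because proteins of this pathway act in pairs, 3 ratios within a library were compared, which do not depend on how libraries are scaled. Ratios are given as the mean ± SD over libraries, with n = 2 in the empty vector and n = 3 in each other group. The MAD2 to MAD1 ratio of TPM was 1.20 ± 0.0526 in R787G, 1.26 ± 0.0334 in G1242V, 1.13 ± 0.00994 in the empty vector and 2.16 ± 0.195 in WT. The 8 libraries without a WT plasmid copy ranged from 1.13 to 1.297 and the 3 WT libraries from 1.95 to 2.34. An exact permutation test over all 92400 assignments of the libraries to the 4 groups gave p = 8.44e-04 (0.00253 adjusted over the 3 ratios). The empty vector had the lowest group mean and WT the highest, and WT minus the empty vector was 0.92 on the log2 scale. This ratio combines the MAD2 and MAD1 values given above and is not separate from them. Ratios of other gene pairs were not tested, and 86.3% of all features were called in the limma F test over the 4 groups.

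The PDS1 to ESP1 ratio was 0.863 ± 0.0354 in R787G, 0.893 ± 0.0830 in G1242V, 0.912 ± 0.0286 in the empty vector and 0.578 ± 0.107 in WT. The 8 libraries without a WT plasmid copy ranged from 0.814 to 0.979, and the highest WT value was 0.679. The exact permutation test gave p = 0.0203 (0.0305 adjusted over the 3 ratios), which ended as a call without G1242V replicate 2 (0.0548), R787G replicate 1 (0.0533) or R787G replicate 3 (0.0543). The ratio of BUB3 to the sum of BUB1 and MAD3, its 2 partners, was 0.743 ± 0.0370 in R787G, 0.559 ± 0.0865 in G1242V, 0.513 ± 0.00747 in the empty vector and 0.624 ± 0.119 in WT. It did not pass (exact permutation p = 0.0907 and the same after adjustment), except without WT replicate 3 (0.0332 adjusted).

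**Figure D3:**
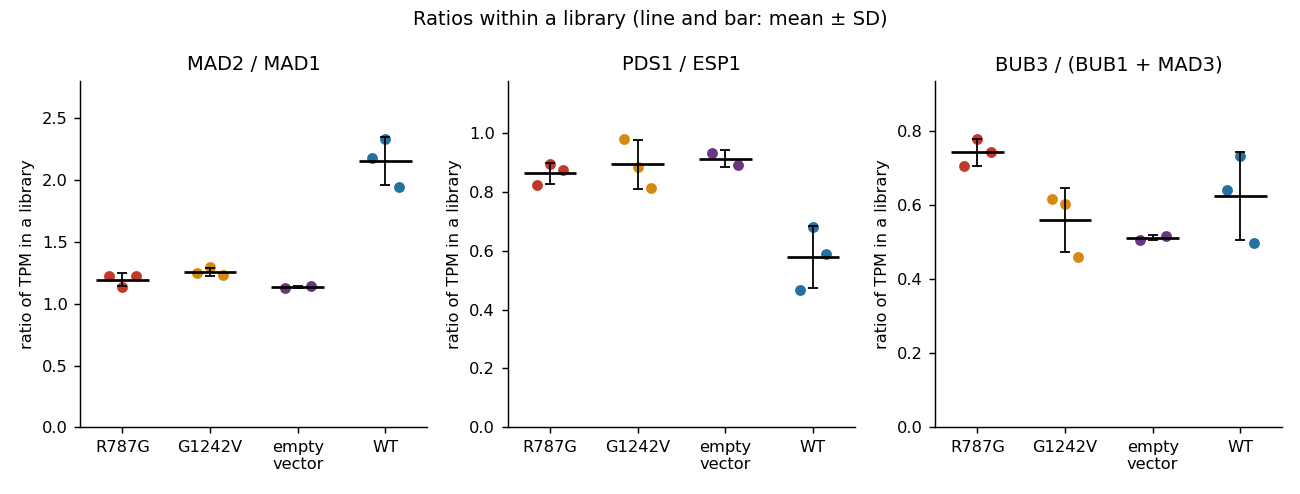
Ratio of TPM within each library (points) with the group mean and SD, for MAD2 over MAD1, PDS1 over ESP1 and BUB3 over the sum of BUB1 and MAD3. The 3 WT libraries stood apart in MAD2 over MAD1 (1.95 to 2.34) and in PDS1 over ESP1 (0.467 to 0.679).

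The genes called in comparisons among R787G, G1242V and the empty vector were all checkpoint genes. In R787G against the empty vector, 3 of the 9 genes were lower and none higher, where 23% of features were lower and 16.9% higher (39.9% called in all). The 2 groups did not overlap in 7 of the 9 genes and in 78.8% of all features. In G1242V against the empty vector, 5 were lower and none higher, where 37.4% were lower and 25.6% higher (63% called in all). The 2 groups did not overlap in 6 of the 9 genes and in 79% of all features. In R787G against G1242V, 3 were higher and none lower, where 26.3% were higher and 19.9% lower (46.2% called in all). The 2 groups did not overlap in 4 of the 9 genes and in 63% of all features. The median log2 fold change of the 9 in these comparisons was -0.20, -0.28 and 0.14, beside -0.051, -0.091 and 0.050 over all features.

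BUB1 gave the largest differences from the empty vector, a fall of 0.54 ± 0.089 in R787G (limma adjusted p = 0.00186) and of 1.05 ± 0.089 in G1242V (limma adjusted p = 1.67e-05). It was higher in R787G than in G1242V by 0.51 ± 0.080 (limma adjusted p = 0.00111), or 0.31 under quantile normalization with the call kept. MAD1 was lower than in the empty vector by -0.27 ± 0.054 in R787G and by -0.54 ± 0.054 in G1242V, and higher in R787G than in G1242V by 0.27 ± 0.049 (limma adjusted p 0.00419, 3.58e-05 and 0.00194). BUB3 was higher in R787G than in G1242V by 0.52 ± 0.13 (limma adjusted p = 0.00925). MAD2 fell in G1242V against the empty vector by 0.40 ± 0.085 (limma adjusted p = 0.00264). The MAD2 difference between R787G and G1242V, 0.20 ± 0.076, did not pass (limma adjusted p = 0.0573). It passed as 0.32 with deposited TPM left unscaled, as 0.30 after rescaling, in a fit of the 2 groups alone and without WT replicate 2 or 3 (0.0124 to 0.180 over all alternatives). The sizes of the differences from the empty vector grew under rescaling, to -0.51 for MAD1 and -0.45 for MAD3 in R787G and to -0.88 for MAD1, -0.73 for MAD2, -0.62 for MPS1 and -0.54 for MAD3 in G1242V. Other alternatives made them smaller. Over all alternatives, BUB1 ran from -0.78 to -0.43 in R787G and from -1.39 to -0.73 in G1242V. MAD1 ran from -0.51 to -0.25 in R787G and from -0.88 to -0.47 in G1242V. The share of higher among called features moved too. In R787G against the empty vector it was 42.4%, then 21.4% with deposited TPM left unscaled and 13.2% after rescaling. In G1242V against the empty vector it was 40.6%, then 20.7% and 16.4%, and in R787G against G1242V 57%, then 75.5% and 73.5%.

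MPS1 in G1242V (-0.28 ± 0.096, limma adjusted p = 0.0257) and MAD3 in R787G (-0.21 ± 0.072, limma adjusted p = 0.0397) and G1242V (-0.20 ± 0.072, limma adjusted p = 0.0311) were also lower than with the empty vector. All 3 calls ended without either empty vector replicate (limma adjusted p 0.0711 to 0.170) and under quantile normalization. That of MPS1 also ended without G1242V replicate 3, that of MAD3 in R787G without any R787G replicate or G1242V replicate 2, and that of MAD3 in G1242V without G1242V replicate 1 or R787G replicate 2.

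**Figure D4:**
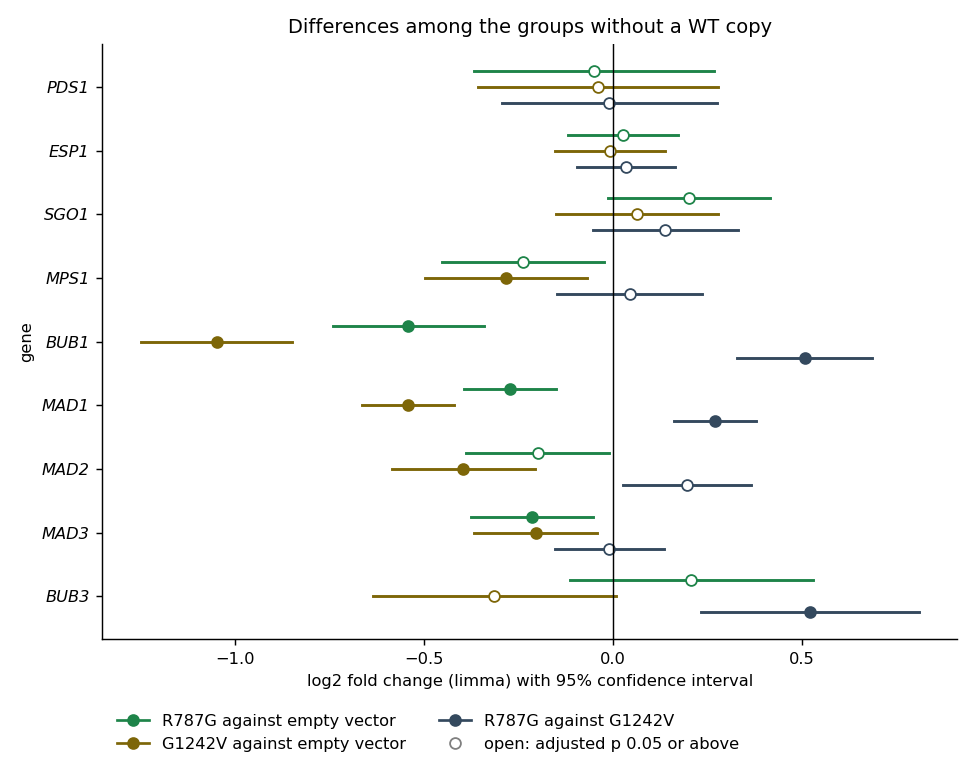
Log2 fold change with 95% confidence interval for each gene in R787G and G1242V against the empty vector and in R787G against G1242V (limma, filled where the adjusted p was under 0.05). PDS1 and ESP1 lay between -0.050 and 0.034 and SGO1 between 0.064 and 0.20 in the 3, none of them called, while BUB1 ran from -1.05 in G1242V against the empty vector to 0.51 in R787G against G1242V.

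Genes that work next to these 9 did not all move with them. The lists below are read against the shares of all features higher and lower, which were 36.5% and 29.3% in R787G, 26.6% and 27.3% in G1242V, then 36.8% and 25.2% with the empty vector, and against the all-feature medians of 0.067, 0.002 and 0.089. With deposited TPM left unscaled, 3425 of 6432 features were higher and 950 lower in the empty vector against WT. After rescaling, 3554 were higher and 851 lower. In R787G against WT these were 2726 and 1521, then 2438 and 1699. In G1242V against WT they were 1598 and 1823, then 1426 and 1960. Of the 15 genes for APC/C subunits and activators, 2 rose and 10 fell in R787G, 2 rose and 10 fell in G1242V, and 4 rose and 4 fell in the empty vector, each against WT. The split in the empty vector was 6 and 1 with TPM left unscaled and under rescaling. The list's median was -0.26, -0.31 and -0.066, on the same order of comparisons. SWM1, a small subunit, fell by 1.10 ± 0.092 in R787G, 1.04 ± 0.092 in G1242V and 1.19 ± 0.10 in the empty vector, to 35.7, 37.4 and 33.5 scaled TPM against 78.0 in WT. MND2 fell in R787G by 0.79 ± 0.18 and in G1242V by 0.93 ± 0.18, and DOC1, which helps substrates bind, fell by 0.66 ± 0.12 and 0.97 ± 0.12. In the empty vector neither passed (-0.41 ± 0.20 and 0.024 ± 0.13). APC1 fell in all 3 (-0.33 ± 0.083, -0.25 ± 0.083 and -0.36 ± 0.093). APC4 rose in R787G (0.33 ± 0.063) and in the empty vector (0.64 ± 0.071) and did not pass in G1242V (0.061 ± 0.063). APC5 rose in G1242V (0.21 ± 0.078) and in the empty vector (0.26 ± 0.088) and did not pass in R787G (0.15 ± 0.078). CDC23 rose in the empty vector (0.46 ± 0.086) and did not pass in R787G (0.12 ± 0.077) or G1242V (-0.14 ± 0.077). CDC20, the activator that the checkpoint inhibits, rose by 0.49 ± 0.084 in R787G and 0.32 ± 0.084 in G1242V, to 44.7 and 40.0 scaled TPM against 31.7 in WT. In the empty vector it stood at 36.6 scaled TPM and did not pass (0.20 ± 0.094, limma adjusted p = 0.0833).

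The chromosomal passenger complex corrects wrong attachments through the kinase Ipl1. IPL1 rose by 0.64 ± 0.066 in R787G, 0.36 ± 0.066 in G1242V and 0.95 ± 0.074 in the empty vector, and SLI15, the gene of its activator, by 0.71 ± 0.091, 0.44 ± 0.091 and 0.79 ± 0.10. The other 2 of its 4 genes, NBL1 and BIR1, fell in R787G (-0.66 ± 0.11 and -0.37 ± 0.061) and in G1242V (-0.62 ± 0.11 and -0.43 ± 0.061). NBL1 also fell in the empty vector (-0.42 ± 0.12), a call lost in the TPM as deposited and under rescaling, and BIR1 did not pass there (-0.11 ± 0.069).

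Of 16 outer kinetochore genes, 9 rose and 1 fell in R787G, 11 rose and 2 fell in G1242V, and 10 rose and 1 fell in the empty vector, with medians of 0.27, 0.47 and 0.50. SPC24, of the Ndc80 complex, rose in all 3 (1.12 ± 0.10, 1.00 ± 0.10 and 1.15 ± 0.11), and ASK1, of the Dam1 complex, fell in all 3 (-0.86 ± 0.060, -0.40 ± 0.060 and -0.63 ± 0.067). DUO1, also of the Dam1 complex, rose in all 3 (0.72 ± 0.084, 0.29 ± 0.084 and 0.81 ± 0.094). DAD1 rose in G1242V (0.75 ± 0.20) and did not pass in R787G (0.22 ± 0.20) or the empty vector (0.0029 ± 0.22). SPC105, the kinetochore platform for Bub1 and Bub3, fell in G1242V (-0.27 ± 0.079), rose in the empty vector (0.50 ± 0.089) and did not pass in R787G (-0.10 ± 0.079).

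Of 16 mitotic exit genes, 11 rose and 1 fell in R787G, 9 rose in G1242V, and 7 rose and 1 fell in the empty vector, with medians of 0.31, 0.32 and 0.22. SLK19, which is itself cut by separase, rose by 1.12 ± 0.067 in R787G, 0.60 ± 0.067 in G1242V and 1.55 ± 0.075 in the empty vector. BFA1, of the spindle position checkpoint, rose in all 3 (0.65 ± 0.075, 0.47 ± 0.075 and 0.82 ± 0.083). The polo kinase gene CDC5 rose in R787G (0.60 ± 0.076) and G1242V (0.62 ± 0.076) and did not pass in the empty vector (0.019 ± 0.085). DBF20 fell in R787G (-0.35 ± 0.056) and did not pass in G1242V (-0.042 ± 0.056) or the empty vector (-0.13 ± 0.063). AMN1 rose in R787G (0.28 ± 0.092) and G1242V (0.58 ± 0.092) and fell in the empty vector (-0.61 ± 0.10). Of 9 genes for the phosphatases PP1 and PP2A and their regulators, 1 rose and 2 fell in R787G, 1 rose and 1 fell in G1242V, and 1 rose and 1 fell in the empty vector, with medians of -0.032, 0.042 and 0.034. With deposited TPM left unscaled, 6 rose and none fell in the empty vector, where 3425 of all 6432 features rose and 950 fell. ZDS2 rose in the 3 comparisons (0.55 ± 0.066, 0.21 ± 0.066 and 0.67 ± 0.074), and PPH22 fell in all 3 (-0.25 ± 0.055, -0.19 ± 0.055 and -0.22 ± 0.062). PPH22 and PPH21 are related copies, between which some reads may be split. PPH21 did not pass in any of the 3 (0.15 ± 0.079, 0.20 ± 0.079 and 0.19 ± 0.088). SDS22, a regulator of PP1, fell in R787G (-0.45 ± 0.091) and did not pass in G1242V (0.042 ± 0.091) or the empty vector (-0.12 ± 0.10).

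Genes that mark cell cycle phases moved beside these values, and their part in them was not tested. Of 12 G1/S markers 11 rose in R787G, 10 in G1242V and 9 in the empty vector, where 1 fell, with medians of 1.16, 0.85 and 0.91. Their summed level was 676 to 717 scaled TPM in R787G, 490 to 725 in G1242V, 526 to 553 in the empty vector and 339 to 400 in WT. The replication clamp gene POL30 rose by 1.98 ± 0.18 in R787G, 1.66 ± 0.18 in G1242V and 1.65 ± 0.20 in the empty vector. The S phase cyclin gene CLB6 rose in all 3 (2.00 ± 0.19, 1.77 ± 0.19 and 1.19 ± 0.22), as did the replication gene CDC45 (1.20 ± 0.096, 0.69 ± 0.096 and 1.48 ± 0.11). CLB6 stood at 1.17 scaled TPM in WT, near the filter of 1 TPM, and at 7.64 in R787G and 6.51 in G1242V. The G1 cyclin gene CLN2 rose in R787G (0.46 ± 0.17), did not pass in G1242V (0.35 ± 0.17) and fell in the empty vector (-0.60 ± 0.19), a fall that lost its call in the TPM as deposited and under rescaling. Of 12 G2/M markers, which include CDC20 and CDC5, 10 rose in R787G, 11 in G1242V and 2 in the empty vector (7 there in the TPM as deposited), with medians of 0.52, 0.51 and 0.10. The mitotic cyclin gene CLB2 rose by 0.91 ± 0.10 in R787G and 0.93 ± 0.10 in G1242V, and CLB1, another mitotic cyclin gene, by 0.91 ± 0.14 and 1.36 ± 0.14. In the empty vector neither passed (0.19 ± 0.12 and -0.13 ± 0.16). KIP2, a kinesin gene, rose in all 3 (0.31 ± 0.072, 0.21 ± 0.072 and 0.60 ± 0.081), as did IQG1, a gene of the contractile ring (0.53 ± 0.056, 0.49 ± 0.056 and 0.55 ± 0.063). The summed G2/M level was 597 to 646 scaled TPM in R787G, 575 to 713 in G1242V, 473 to 484 in the empty vector and 425 to 444 in WT.

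Of 8 histone genes, markers of S phase, 5 rose in R787G, 7 rose in G1242V and 3 fell in the empty vector (7, 7, and 1 rise with 2 falls in the TPM as deposited and under rescaling), with medians of 0.53, 0.75 and -0.21 and summed levels of 3415 to 3685, 3683 to 4681 and 2017 to 2142 scaled TPM, against 2124 to 2823 in WT. HTA2 rose by 1.44 ± 0.25 in R787G and 1.93 ± 0.25 in G1242V, and HTB2 by 1.31 ± 0.15 and 1.51 ± 0.15. In the empty vector neither passed (-0.11 ± 0.28 and -0.13 ± 0.17). HTA1 rose in G1242V (0.60 ± 0.21), fell in the empty vector (-0.78 ± 0.23) and did not pass in R787G (0.47 ± 0.21). HTB1 fell in the empty vector (-0.66 ± 0.11) and did not pass in R787G (-0.13 ± 0.096) or G1242V (0.0051 ± 0.096). Histone genes come in near-identical pairs, between which reads may be split. Of 10 M/G1 markers, 2 rose and 1 fell in R787G, 5 rose in G1242V and 7 fell in the empty vector (3 rose and 7 fell there in the TPM as deposited and under rescaling), with medians of 0.024, 0.24 and -0.79. Their summed levels were 1118 to 1307 in R787G, 1355 to 1739 in G1242V, 806 to 877 in the empty vector and 1139 to 1407 scaled TPM in WT. PIR1, a cell wall gene, rose in R787G (0.55 ± 0.12) and G1242V (0.80 ± 0.12) and did not pass in the empty vector (0.25 ± 0.13). CDC6, which loads the replicative helicase, rose in R787G (0.45 ± 0.078) and G1242V (0.21 ± 0.078) and did not pass in the empty vector (0.17 ± 0.087). DSE1 rose in G1242V (0.58 ± 0.21), fell in the empty vector (-0.79 ± 0.23) and did not pass in R787G (0.15 ± 0.21). The chitinase gene CTS1 fell in R787G (-0.65 ± 0.18) and the empty vector (-1.02 ± 0.20) and did not pass in G1242V (-0.17 ± 0.18). DSE2 and SCW11 fell in the empty vector (-1.71 ± 0.20 and -1.31 ± 0.13) and did not pass in R787G (-0.43 ± 0.18 and -0.22 ± 0.11) or G1242V (0.051 ± 0.18 and 0.17 ± 0.11). No gene of these 4 lists was at 0 throughout a group.

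**Figure D5:**
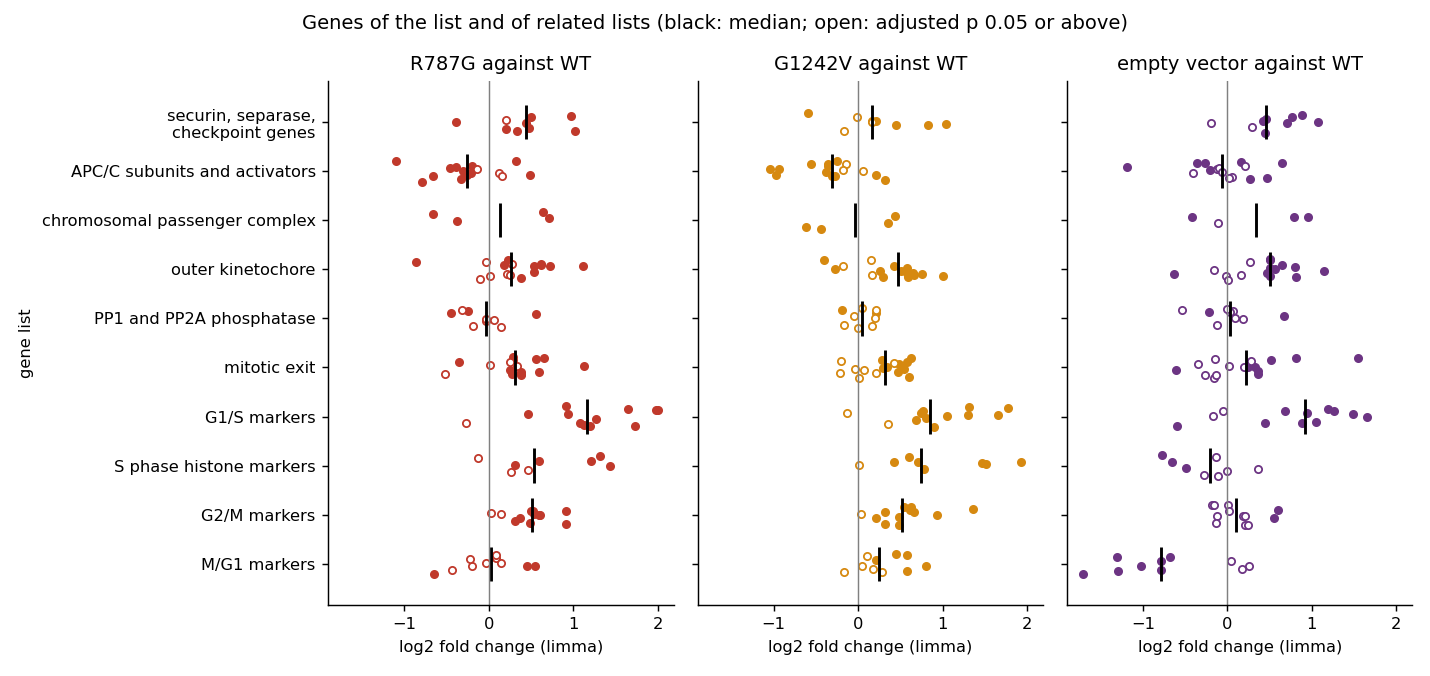
Log2 fold change against WT of each gene (points, filled where the limma adjusted p was under 0.05) and the list median (black bar) for the 9 genes and for related lists and cell cycle markers. The APC/C list had medians of -0.26 in R787G and -0.31 in G1242V, below 0 where the median of the 9 genes was 0.44 and 0.17.

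The features most like each gene were found by the root-mean-square difference of log2(scaled TPM + 1), each centred on its own mean, over the 11 libraries, among 5493 other features with a mean of at least 10 scaled TPM. The nearest to PDS1 were ACM1, which encodes an inhibitor of the APC/C activator Cdh1 (difference 0.117), and SPC24 (0.140), where the median over features was 0.538. The nearest to ESP1 were IQG1 (0.0499) and PET127 (0.0545), to SGO1 ERG27 (0.0737) and ALG5 (0.0859), and to MPS1 ERJ5 (0.0560) and SRF1 (0.0630). BUB1 lay nearest to CHS6 (0.0857) and KIP3 (0.0864), MAD1 to TRS85 (0.0450) and SLY1 (0.0515), and MAD2 to the proteasome subunit gene PRE6 (0.0496) and DCK1 (0.0544). MAD3 lay nearest to CUB1 (0.0464) and HRD1 (0.0490), and BUB3 to FCP1 (0.0814) and SLD5 (0.0942). Within the 9, the closest pair was MPS1 and MAD3 (0.102), PDS1 and SGO1 differed by 0.173, and PDS1 and MAD2 were the farthest apart (0.674). The median over features was lowest for MAD3 (0.295) and MPS1 (0.304) and highest for PDS1 (0.538). Genes that vary little give small differences by this measure.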

How the data were processed

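RNA was measured in 11 yeast cultures. Per the labels' protocols, total RNA was depleted of rRNA and sequenced from stranded libraries. From the submitters' processing notes, bcl2fastq 2.17, STAR, RSEM and edgeR were used with the sacCer3 build. The gene models and strand option behind the table are not given here. The authors deposited TPM. No counts are held in them, so count models were not used.

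The table held 7036 features. 1 row with a shifted field was left out, and 5955 features were matched to R64 by locus tag. None of the 9 genes overlaps another gene of that annotation. The promoter window of PDS1 is not reported here. A median-of-ratios factor per library was taken over 5221 features with at least 10 TPM in every library, and 6432 features were fitted with limma 3.58.1 in R 4.3.3 (all 11 libraries, 4 groups, eBayes with trend, pseudocount 1). The script was tested on simulated data. Ratios were tested by exact permutation in Python 3.11.15. Members and lists were chosen with earlier results of these data known. Named genes were the 9, up to 2 rises and 2 falls of each of 11 lists against WT, and the 2 nearest patterns. Mating-type genes are given here. Replicate numbers were not used as a block. Mating-type lists were used as a check of identity only: of 4 alpha-cell markers 3 were tested, and 1 rose in R787G, 1 rose and 2 fell in G1242V and 3 rose in the empty vector, while of 5 a-cell markers 3 rose and 1 fell, 3 rose, and 1 rose and 1 fell in the same order. Under quantile normalization 1 alpha-cell marker rose in the empty vector and 2 a-cell markers rose in G1242V. Of all features, 36.5%, 26.6% and 36.8% were higher and 29.3%, 27.3% and 25.2% lower in the 3 comparisons against WT. MF(ALPHA)1 rose in the 3 (1.31, 0.64 and 1.03), STE3 and SAG1 fell in G1242V (-0.52 and -0.39) and STE3 rose in the empty vector (0.51). BAR1 rose in the 3 (1.41, 1.39 and 0.62) and MFA2 in R787G and G1242V (0.87 and 0.95), while MFA1 fell in R787G (-0.53) and STE2 in the empty vector (-0.45). Alternatives were other scalings (TPM as deposited, rescaling to nuclear coding genes, quantile normalization), a pseudocount of 0.1 or 5, no filter, a filter at 10 TPM, other eBayes settings (robust, no trend), fits of the 2 groups alone, a replicate block and each library left out.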

Additional observations from a re-analysis of the deposited data

How the results depend on the processing

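Of 54 comparisons of single genes, 32 were called, and 26 of these kept the call under every one of 22 alternatives, while 6 lost it under at least 1 and none changed sign. Of the 22 not called, 12 passed under at least 1. The causes were not tested. The number of the 9 genes called in R787G against the empty vector, 3, was 5 in the TPM as deposited, 5 after rescaling to nuclear coding genes and 7 (2 higher and 5 lower) with only the groups compared, and ran from 2 to 5 with single libraries left out. In G1242V against the empty vector, 5 (all lower), it was 7 (all lower) with TPM left unscaled and under rescaling, and 2 higher and 3 lower under quantile normalization. It ran from 4 to 6 with single libraries outside the empty vector left out. The share of all features called in those fits is not given here, and was 63% with all libraries. Features called in R787G against the empty vector numbered 2564, but 4122 with only the groups compared and 1098 or 1121 without empty vector replicate 1 or 2. Of all 6432 features, 1477 were lower in that comparison, 2362 with TPM left unscaled and 3034 under rescaling (1087, 645 and 463 higher). In G1242V against the empty vector, 2405, 3552 and 3875 were lower in the same order (1646, 928 and 759 higher). Under quantile normalization, 1835 were lower and 1716 higher in G1242V against the empty vector.

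With a replicate block, the PDS1 to ESP1 difference of 0.67 (log2) lost its call (exact permutation, adjusted p = 0.0729). Single genes called numbered 4 (all lower) in G1242V against the empty vector, 2 higher and 2 lower in R787G against the empty vector, where SGO1 (0.25, adjusted p = 0.0460) and BUB3 (0.30, adjusted p = 0.0338) passed, and 9 in R787G against WT, where MPS1 passed (0.21, adjusted p = 0.0476). The calls of MAD3 against the empty vector were lost under the block in R787G (-0.22, adjusted p = 0.0643) and in G1242V (-0.21, adjusted p = 0.0546). Shares of all features called under the block are not given here. Deviations from the group means correlated between -0.16 and 0.27 for same-numbered libraries (15 pairs) and between -0.38 and 0.30 for the rest (30 pairs). Deviations within a group depend on each other, so these correlations cannot decide whether the numbers pair the cultures. With libraries left out, the PDS1 to ESP1 difference ran from 0.53 to 0.80 and that of BUB3 to BUB1 plus MAD3 from 0.50 to 0.57.

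The values that changed sign were not called. In the TPM as deposited, MAD2 in the empty vector against WT was 0.036, ESP1 in R787G against the empty vector -0.10, SGO1 in G1242V against the empty vector -0.18, and PDS1 and MAD3 in R787G against G1242V 0.11 and 0.11. After rescaling, MAD2 was 0.073, ESP1, SGO1 and BUB3 in R787G against the empty vector -0.20, -0.019 and -0.022, SGO1 in G1242V against the empty vector -0.26, and PDS1 and MAD3 in R787G against G1242V 0.091 and 0.092. Under quantile normalization, BUB3 in G1242V against WT was 0.031, PDS1 in R787G and G1242V against the empty vector 0.066 and 0.15, ESP1 in G1242V against the empty vector 0.16 (limma adjusted p = 0.0366, past the threshold), and ESP1 and MPS1 in R787G against G1242V -0.028 and -0.026. With libraries left out, BUB3 in G1242V against WT ran from -0.14 to 0.099, PDS1 and ESP1 in G1242V against the empty vector from -0.091 to 0.043 and from -0.033 to 0.014, and PDS1, MPS1 and MAD3 in R787G against G1242V from -0.092 to 0.044, -0.025 to 0.093 and -0.047 to 0.036. TPM hold no depth, so counting error at the lowest levels is not known.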
